A study of Mus musculus with 10 samples.

Results

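Transcript levels of 10 core genes of the Hippo pathway were compared between sorted luminal and basal cells of the mouse mammary gland. The genes were the coactivators Yap1 and Wwtr1, their DNA-binding partners Tead1, Tead2, Tead3 and Tead4, the kinases Lats1 and Lats2, the upstream regulator Nf2 and the TEAD cofactor Vgll4. They were taken as a list of named regulators, not of target genes, and all 10 were found among the 24594 genes counted. Both coactivators, Tead1, Tead3, Lats1, Nf2 and Vgll4 were higher in basal cells, and Tead2 and Tead4 were higher in luminal cells. Nf2 was called under 11 of the 21 processing settings run. The TEAD gene with the highest level per transcript length was Tead2 in every luminal library and Tead1 in every basal library.

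The libraries came from freshly isolated cells of virgin, wild type C57BL/6J mice, whose age the labels do not give, with no treatment or transgene in either group. Glands were digested to single cells, and flow sorting by surface EpCAM and CD49f gave luminal cells, which line the lumen of the ducts, and basal cells, which surround them and contract. RNA-seq was carried out on 5 libraries of luminal and 5 libraries of basal cells. The labels name no split of the luminal gate into progenitor and mature cells, so a luminal value is an average over the whole gate. The comparison asks which genes differ between these cell types in the resting gland.

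In the Hippo pathway, the kinases MST1 and MST2 act with the adaptors SAV1 and MOB1 to activate LATS1 and LATS2, which phosphorylate YAP and TAZ (the product of Wwtr1) and keep them out of the nucleus. Unphosphorylated YAP and TAZ enter the nucleus and switch on genes through TEAD proteins, which bind DNA and cannot activate transcription well alone. In epithelia the pathway responds to cell contact, cell shape and matrix stiffness. Much of its control acts on protein phosphorylation and location, which RNA levels do not measure.

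Library totals ranged from 13203146 to 17998165 counts, and between 16840 and 17842 genes were detected per library. The cell type label set the groups. In all 10 libraries the title gives the other cell type than this label, while source name and description go with the label. All 9 luminal markers (such as Krt8, Krt18 and Elf5) were higher in the libraries labelled luminal, and all 7 basal markers (such as Krt5, Krt14 and Acta2) were higher in those labelled basal. The labels do not say that the libraries of a group came from separate mice, so p-values measure only the spread between these libraries. Sequencing of sorted populations gives RNA per population, so fewer cells of a type and less RNA per cell cannot be told apart.

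Every one of the 10 genes passed the filter on low counts, with between 32 and 24872 counts per library. By edgeR's quasi-likelihood test with Benjamini-Hochberg adjustment over 14609 genes, 9 of the 10 genes differed at an adjusted p under 0.05, where 64.8% of all genes tested did so. Of these, 7 were higher in basal cells (31.2% of all genes) and 2 were higher in luminal cells (33.6% of all genes). In 8 of the 10 genes no luminal library overlapped with a basal library, 6 of them with basal higher and 2 with luminal higher. Among all genes tested the libraries did not overlap in 50.1%, with basal higher in 25.3% and luminal higher in 24.7%. A called change of at least 2-fold was found in 40.0% of all genes, and Yap1, Wwtr1, Tead1, Tead2, Tead4 and Lats1 had one. Yap1 and Lats1 lay near this limit and fell below it with upper-quartile factors (log2 fold changes of -0.90 and -0.96), library totals (-0.83 and -0.89) and GC and length offsets (-0.70 and -0.64). Yap1 also did so without basal library 1 (-0.99), basal library 5 (-0.997) or luminal library 4 (-0.97), taken out singly. Tead3, at -0.97, passed the limit with DESeq2 and with its size factors (-1.01 each), without the filter (-1.03) and without basal library 4 (-1.03) or luminal library 3 (-1.02). The median size of the log2 fold change was 1.05 over the 10 genes and 0.81 over all genes tested. The median log2 fold change, luminal over basal, was -0.73 over the 10 genes and 0.05 over all genes.

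**Figure D1:**
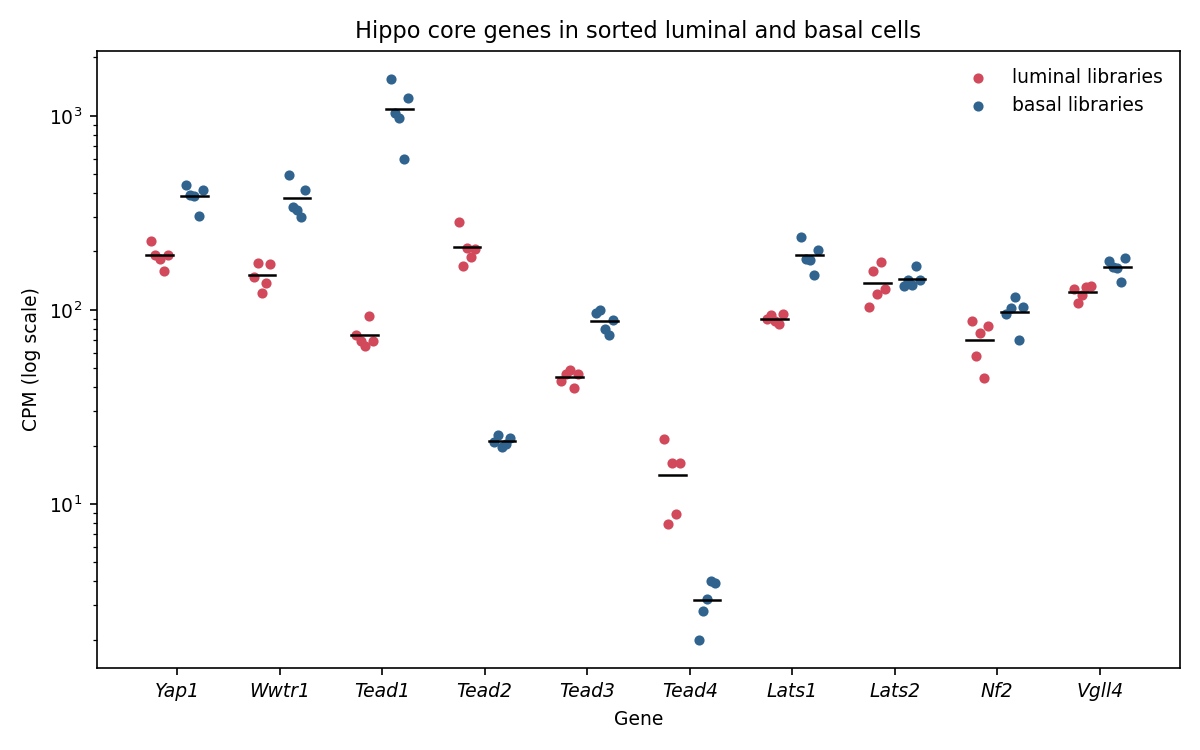
Level of each Hippo core gene in CPM (depth-scaled counts, log axis) in the 5 luminal libraries (red points) and the 5 basal libraries (blue points), with the mean of each group as a black line. Tead1 and Tead2 stand apart in opposite directions, and the libraries of both groups overlap for Lats2 and Nf2 alone.

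Both coactivator genes were higher in basal cells. Yap1 (Entrez 22601, GRCm38.p6 chr9:7931999-8004638, minus strand), which encodes YAP, was measured at 226, 191, 184, 160 and 193 CPM in luminal libraries 1 to 5 and at 438, 391, 387, 306 and 417 CPM in basal libraries 1 to 5. CPM values are counts scaled for depth, with each library total multiplied by its TMM factor. The lowest basal library thus lay above the highest luminal library. Luminal cells averaged 191 ± 23.8 CPM (SD, n = 5) and basal cells 388 ± 50.4 CPM (SD, n = 5), a 2.03-fold higher level in basal cells. The log2 fold change, luminal over basal, was -1.02 (SE 0.14, adjusted p = 2.46e-05).

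Wwtr1 (Entrez 97064, chr3:57455644-57575910, minus strand), which encodes TAZ, was measured at 148, 174, 122, 137 and 173 CPM in the luminal libraries and at 493, 338, 328, 300.3 and 415 CPM in the basal libraries. Its groups did not overlap either, and basal library 1 was the highest of all. The luminal mean of 151 ± 22.9 CPM (SD, n = 5) and the basal mean of 375 ± 78.6 CPM (SD, n = 5) made it 2.49-fold higher in basal cells, with a log2 fold change of -1.32 (SE 0.17, adjusted p = 9.78e-06).

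The balance of both coactivators differed little between the cell types. Per length of the longest transcript, the log2 ratio of Wwtr1 to Yap1 was -0.17 ± 0.24 (SD, n = 5) in luminal and 0.11 ± 0.17 (SD, n = 5) in basal libraries. The difference of -0.28 on the log2 scale did not pass an exact two-sided permutation test over libraries (p = 0.0714, adjusted p = 0.0714 over 5 ratios), and the libraries overlapped. Without basal library 3 the difference was -0.33 and the exact test gave an adjusted p = 0.0476. In basal cells the geometric mean ratio was above 1 under each length tried (1.08 per longest transcript, 1.03 by coding length and 1.86 per union of exons), whereas in luminal cells it was 0.886, 0.85 and 1.53, so that the luminal order turned with the length.

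Markers of other cell types were counted in both groups, at unequal levels. The summed level of the pericyte markers Rgs5, Cspg4 and Pdgfrb ranged from 27.4 to 43.1 CPM in basal and from 0 to 1.47 CPM in luminal libraries, and all 3 were higher in basal cells. Endothelial markers summed to between 8.44 and 16 CPM in basal and between 1.69 and 4.06 CPM in luminal libraries, with 2 of 5 (Cdh5 and Cldn5) higher in basal cells and Pecam1 at similar levels (1.62 to 5.99 CPM in basal, 1.47 to 3.93 CPM in luminal libraries). Immune markers summed to between 12.2 and 34.6 CPM in basal and between 4.13 and 11.3 CPM in luminal libraries. Of the 6, Cd74 was higher in basal cells, and Cd52 and Lyz2 were higher in luminal cells. The T cell gene Cd3e had no count in any library. Ptprc (at most 0.381 CPM) and Cd79a (at most 0.205 CPM) were too low to test. In luminal libraries the largest sum of these lists was that of the fibroblast markers, between 22.1 and 113 CPM. In basal libraries the fibroblast markers summed to between 24.8 and 41.5 CPM, a range like that of the pericyte markers. Of the 5, Dcn was higher in luminal cells and reached 95.1 CPM in luminal library 1, Pdgfra was higher in basal cells, and Col1a1, Col1a2 and Lum did not pass. Of the 4 fat cell markers, Adipoq had no count in any library, Fabp4 was higher in basal cells, and Plin1 and Retn were too low to test (Retn at 0.263 to 2.52 CPM in luminal and 0 to 0.312 CPM in basal libraries). Of the red cell genes, Hba-a1 was higher in luminal cells, Alas2 did not pass (adjusted p = 0.769) and Hbb-bt was too low to test. Genes induced by dissociation also differed, with Fos, Jun, Egr1, Atf3 and Dusp1 higher in basal and Hspa1a and Hspa1b higher in luminal cells. The study's flow methods also stain blood, endothelial and immune cells (TER-119, CD31 and CD45), whereas the labels of these libraries name EpCAM and CD49f alone. Which cells the marker counts came from was not tested. The part of other cell types and of dissociation in the levels of the Hippo genes was not tested either.

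The TEAD genes, which encode the DNA-binding partners of YAP and TAZ, included the 3 core genes with the largest fold changes (Tead1, Tead2 and Tead4), and their directions were split. Tead1 (Entrez 21676, chr7:112679356-112906784, plus strand) was measured at 74.2, 69.0, 64.8, 93.4 and 69.4 CPM in the luminal libraries. Its basal libraries held 1551, 1036, 979, 601 and 1228 CPM, so that even basal library 4 was several times above any luminal library. The means of 74.2 ± 11.2 CPM (SD, n = 5) and 1079 ± 348 CPM (SD, n = 5) differed 14.5-fold, with a log2 fold change of -3.86 (SE 0.24, adjusted p = 7.24e-09). With offsets for GC content and transcript length the log2 fold change was -3.24, still called.

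Tead2 (Entrez 21677, chr7:45215792-45233468, plus strand) had the opposite pattern. It was measured at 284, 168, 209, 187 and 206 CPM in the luminal libraries and at 20.9, 22.6, 19.7, 20.4 and 21.9 CPM in the basal libraries. The basal values lay close together, and luminal library 1 was the highest. Tead2 was 9.99-fold higher in luminal cells, with means of 211 ± 44.3 CPM (SD, n = 5) and 21.1 ± 1.15 CPM (SD, n = 5) and a log2 fold change of 3.32 (SE 0.16, adjusted p = 5.64e-10).

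Tead3 (Entrez 21678, chr17:28331671-28350805, minus strand) followed Tead1 in direction but not in size. Luminal libraries held 42.9, 46.7, 49.0, 39.6 and 46.5 CPM of Tead3, and basal libraries 96.5, 100.3, 79.7, 74.3 and 89.0 CPM, without overlap. It was 1.96-fold higher in basal cells, with a log2 fold change of -0.97 (SE 0.13, adjusted p = 1.38e-05).

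Tead4 (Entrez 21679, chr6:128227143-128300813, minus strand) was the least abundant of the 10 genes in both cell types per transcript length. Its luminal libraries held 21.6, 7.85, 16.3, 8.86 and 16.2 CPM, a wide spread, and its basal libraries 2.0, 2.8, 3.25, 4.0 and 3.9 CPM. These basal values rest on 32 to 65 counts per library, and the luminal values on 116 to 345 counts. Tead4 was 4.44-fold higher in luminal cells, with a log2 fold change of 2.15 (SE 0.31, adjusted p = 3.17e-05), and no basal library reached the lowest luminal library.

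**Figure D2:**
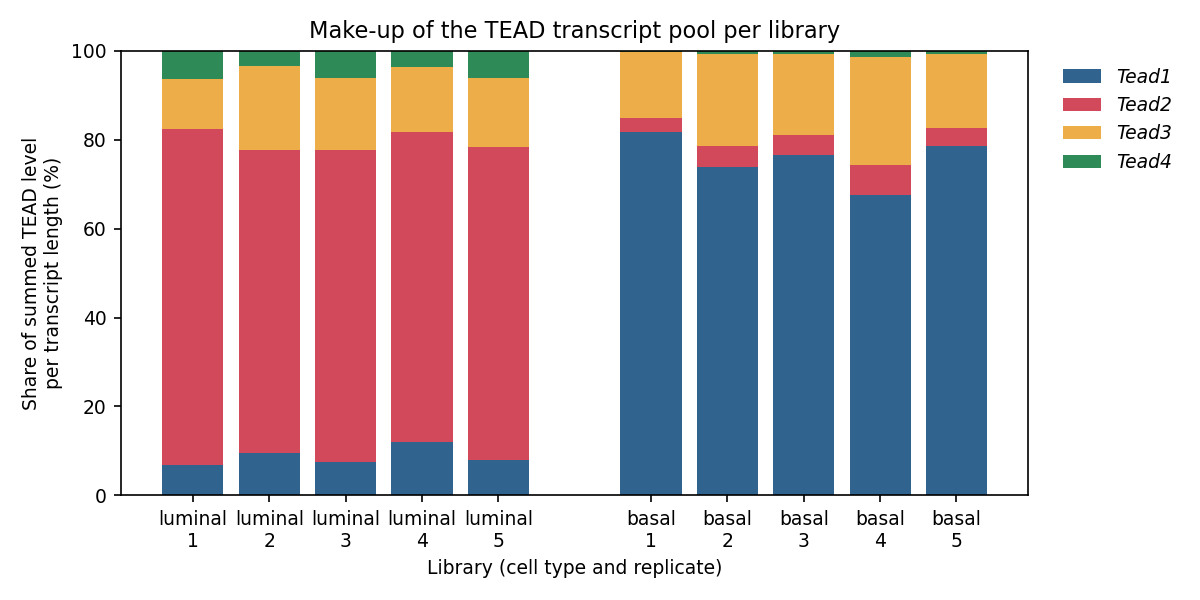
Share (%) of Tead1, Tead2, Tead3 and Tead4 in the summed TEAD level per transcript length, as stacked bars for each of the 5 luminal and 5 basal libraries. Tead2 takes between 68.2% and 75.7% of each luminal bar and Tead1 between 67.6% and 81.7% of each basal bar.

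The make-up of the TEAD transcript pool was described per library, after dividing each gene's level by the length of its longest transcript. Tead2 made up 70.8% ± 2.83 (SD, n = 5) of the pool in luminal cells and 4.67% ± 1.30 (SD, n = 5) in basal cells. Tead1 made up 8.73% ± 2.05 (SD, n = 5) in luminal and 75.7% ± 5.34 (SD, n = 5) in basal cells. Tead3 had 15.3% ± 2.72 (SD, n = 5) in luminal and 18.8% ± 3.72 (SD, n = 5) in basal cells per longest transcript, with overlapping libraries, but 12.7% and 7.36% by coding length. Tead4 had 5.13% ± 1.41 (SD, n = 5) in luminal and 0.815% ± 0.408 (SD, n = 5) in basal cells. The shares depend on which length is used, since the Tead1 transcript has a long untranslated part. With coding length instead, Tead2 had 60.8% and Tead1 22.3% of the luminal pool, and Tead1 had 90.4% and Tead2 1.89% of the basal pool. The leading gene of each cell type was the same under both lengths, and also per union of exons.

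Ratios of TEAD genes within a library need no scaling between libraries. The ratio of Tead2 to Tead1 per transcript length was 8.27 in luminal and 0.0602 in basal cells as geometric means, a 138-fold difference that does not depend on the length, while the ratio within a cell type does (2.76 and 0.0201 by coding length). On the log2 scale it ranged from 2.55 to 3.49 in luminal and from -4.66 to -3.32 in basal libraries. The ratio of Tead4 to Tead1 differed 59.1-fold and that of Tead3 to Tead1 7.18-fold, both higher in luminal cells. None of these 3 ratios overlapped between groups, and each reached p = 0.00794, the smallest that the exact two-sided permutation test of 5 against 5 libraries can give (adjusted p = 0.00992 over 5 ratios). Tead3 was below Tead1 in every basal library under each length tried. In luminal cells their order turned with the length, as Tead3 was above Tead1 in 5 of 5 libraries per longest transcript, in 4 of 5 per union of exons and in 0 of 5 by coding length.

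**Figure D3:**
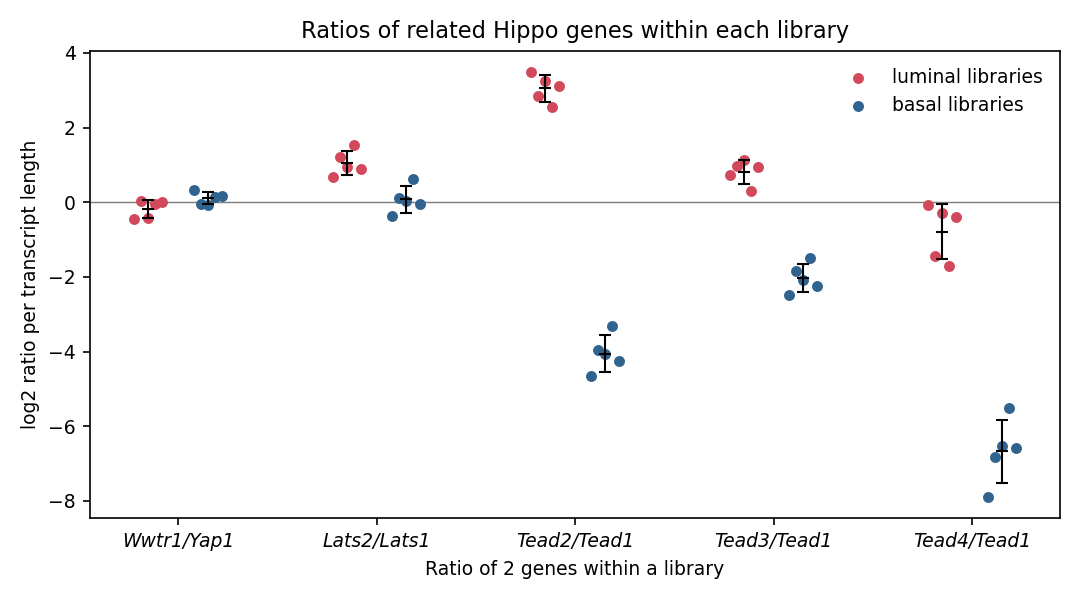
Log2 ratio per length of the longest transcript of 5 pairs of related genes in each luminal (red) and basal (blue) library, with the mean and SD of each group in black. The groups are apart for the 3 ratios to Tead1 and for Lats2 to Lats1, and overlap for Wwtr1 to Yap1.

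The kinase genes, whose products phosphorylate YAP and TAZ, did not move together. Lats1 (Entrez 16798, chr10:7681200-7716461, plus strand) was measured at 89.3, 94.5, 87.5, 84.4 and 95.4 CPM in the luminal libraries and at 237, 182, 181, 152 and 204 CPM in the basal libraries. The luminal values varied little, and the groups did not overlap. Lats1 was 2.12-fold higher in basal cells, with a log2 fold change of -1.08 (SE 0.14, adjusted p = 7.32e-06).

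Lats2 (Entrez 50523, chr14:57689662-57746212, minus strand) was the core gene that did not pass the test. Luminal libraries held 104, 158, 121, 176 and 128 CPM of Lats2, and basal libraries 133, 142, 134, 169 and 143 CPM. The basal values fell inside the luminal range. Its log2 fold change of -0.07 (SE 0.15, adjusted p = 0.699) had a 95% confidence interval from -0.40 to 0.26, so changes within these bounds are not excluded. Its sign turned with upper-quartile factors, library totals or GC and length offsets in place of the main scaling, and without luminal library 1 (0.03), and no setting gave a call. Of the exon bases of Lats2, 42.4% are shared with the annotated gene Gm49361 on the same strand, so its counts depend on how such reads were assigned, which is not given in the sources used here.

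The balance between both kinases differed. Lats2 to Lats1 per longest transcript was 2.07 in luminal and 1.05 in basal cells as geometric means (1.62 and 0.822 by coding length). The difference was 0.98 on the log2 scale (exact permutation p = 0.00794, adjusted p = 0.00992 over 5 ratios), and the lowest luminal library (0.69) lay just above the highest basal library (0.63).

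Nf2 encodes merlin, a membrane-linked protein that promotes LATS activation. Nf2 (Entrez 18016, chr11:4757639-4849544, minus strand) was measured at 88.1, 57.5, 75.9, 44.6 and 82.8 CPM in the luminal libraries and at 95.5, 103, 116, 70.1 and 104 CPM in the basal libraries. The groups overlapped, since basal library 4 lay below 3 luminal libraries. Nf2 was 1.40-fold higher in basal cells, with a log2 fold change of -0.48 (SE 0.19, adjusted p = 0.0385). This call is weak. It was lost with upper-quartile factors (adjusted p = 0.101), library totals (adjusted p = 0.228) and GC and length offsets (adjusted p = 0.126). It was also lost without basal library 1, 2, 3 or 5 or luminal library 2 or 4, taken out singly, where the log2 fold change ran from -0.50 to -0.36 and the adjusted p from 0.0523 to 0.0970.

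Vgll4 encodes a cofactor that competes with YAP and TAZ for TEAD proteins. Vgll4 (Entrez 232334, chr6:114860621-114970007, minus strand) was measured at 128, 109, 119, 131 and 132 CPM in the luminal libraries and at 179, 166, 165, 139 and 185 CPM in the basal libraries. No basal library fell to the luminal range, although the gap was small. Vgll4 was 1.35-fold higher in basal cells, with a log2 fold change of -0.43 (SE 0.12, adjusted p = 0.00688). With library totals in place of TMM factors it was -0.24 and no longer called (adjusted p = 0.10).

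Levels of different genes were set side by side per kilobase, here of the longest transcript. In luminal cells, Tead2 (62.1 ± 13.1 CPM per kilobase, SD, n = 5) and Vgll4 (56.3 ± 4.41) led, and their libraries overlapped. Yap1 (36.1 ± 4.51), Wwtr1 (32.1 ± 4.88) and Lats2 (26.4 ± 5.61) came next, each overlapping its neighbour and all below Vgll4 in every library. Nf2 (14.8 ± 3.86), Tead3 (13.1 ± 1.08) and Lats1 (12.5 ± 0.645) formed a lower step whose neighbours overlapped. Tead1 (7.44 ± 1.13) and Tead4 (4.60 ± 1.86) were lowest, and their ranges overlapped although Tead1 was above Tead4 in each of the 5 libraries.

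The basal order differed mainly at its ends. Tead1 (108 ± 35.0 CPM per kilobase, SD, n = 5), Wwtr1 (79.8 ± 16.7), Vgll4 (75.9 ± 8.01) and Yap1 (73.4 ± 9.55) led, with each neighbour overlapping the next. After a gap in which Yap1 was above Lats2 in all 5 libraries, Lats2 (27.8 ± 2.83), Lats1 (26.5 ± 4.4), Tead3 (25.5 ± 3.19) and Nf2 (20.7 ± 3.61) followed, again with overlapping neighbours. Tead2 (6.22 ± 0.337) and Tead4 (1.04 ± 0.269) were at the bottom and overlapped with no neighbour. These ranks depend on the length. By coding length, luminal Tead1 (56.7 ± 8.59) ranked 5 and stood above Lats2 (43.9 ± 9.32), Nf2 (39.0 ± 10.2), Tead3 (32.2 ± 2.67) and Lats1 (26.6 ± 1.37). Under all 3 lengths tried, added after the values were seen (longest transcript, coding length and union of exons), Tead2 had the highest mean and Tead4 the lowest in luminal cells, and in basal cells Tead1 had the highest, Tead2 rank 9 and Tead4 the lowest.

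Sums over genes were computed after these values were seen and are given without a test. The summed TEAD level was 87.2 ± 14.5 CPM per kilobase (SD, n = 5) in luminal and 141 ± 37.2 (SD, n = 5) in basal cells, a 1.62-fold difference with overlapping libraries, but by coding length it was 258 ± 36.3 against 906 ± 272, or 3.51-fold, without overlap. The summed level of Yap1 and Wwtr1 was 68.2 ± 7.50 in luminal and 153 ± 25.2 in basal cells, 2.25-fold higher in basal cells (2.24-fold by coding length). Coactivators over TEADs had no stable direction, at 0.795 ± 0.139 in luminal and 1.11 ± 0.148 in basal cells per longest transcript, and at 0.948 ± 0.155 in luminal and 0.622 ± 0.111 in basal cells by coding length. Vgll4 over the coactivators ranged from 0.677 to 1.0 in luminal and from 0.434 to 0.524 in basal libraries, without overlap, and by coding length from 0.489 to 0.725 and from 0.314 to 0.378. Both LATS genes over the coactivators ranged from 0.436 to 0.768 in luminal and from 0.311 to 0.440 in basal libraries, which overlapped slightly, as they did by coding length, and per union of exons from 0.49 to 0.802 and from 0.343 to 0.47, without overlap.

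Among the replicates, basal library 4 was the lowest basal library in all 7 genes called higher in basal cells. Over all 4558 genes called higher in basal cells, it was the lowest in 40.3%. Basal library 1 was the highest in 4 of the 7 (33.8% over all such genes). Luminal library 1 was the highest and luminal library 2 the lowest luminal library for both Tead2 and Tead4 (21.1% and 15.7% over all 4904 genes called higher in luminal cells). Leaving out any of these libraries left Yap1, Wwtr1, Tead1 to Tead4, Lats1 and Vgll4 called in the same direction. The median SD of log2(CPM + 1) among libraries was 0.21 in luminal and 0.22 in basal cells over the 10 genes, against 0.32 and 0.25 over all genes tested.

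Other genes of the pathway were read from a list of 31, of which 29 were tested and 9 did not pass. Higher in basal cells were 14 (31.2% of all genes), and higher in luminal cells were 6 (33.6% of all genes). The share called was 69.0%, close to that of all genes tested (64.8%). Their median log2 fold change was -0.17.

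**Figure D4:**
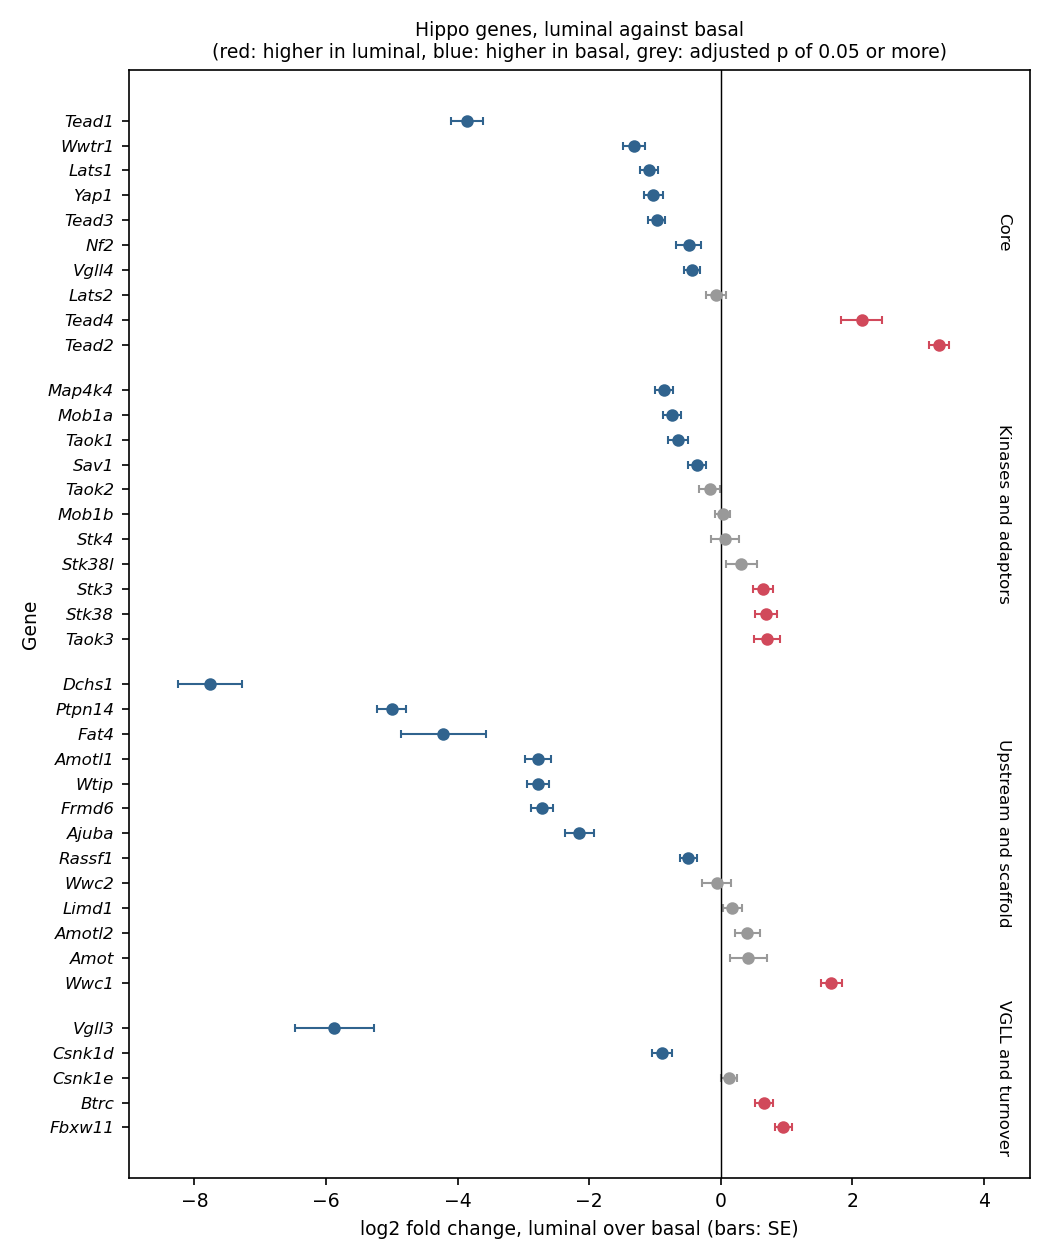
Log2 fold change, luminal over basal, with its SE as a bar, for the 10 core genes and the 29 tested genes of the wider list, grouped by role. Red points are higher in luminal cells and blue points higher in basal cells at an adjusted p under 0.05, and the scaffold and upstream genes hold most of the points beyond -2.

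Of 11 kinase and adaptor genes, 3 were higher in luminal cells and 4 in basal cells, so that 63.6% were called, where 64.8% of all genes were, and their median log2 fold change was 0.03. The luminal ones were Stk3 (0.65, adjusted p = 0.00201), which encodes MST2, Taok3 (0.71, adjusted p = 0.00634), whose product belongs to the kinases that can activate MST, and Stk38 (0.69, adjusted p = 0.00205), a kinase related to LATS. The basal ones were the adaptors Sav1 (-0.36, adjusted p = 0.0323) and Mob1a (-0.74, adjusted p = 0.000363) and the MST-like kinases Map4k4 (-0.87, adjusted p = 6.13e-05) and Taok1 (-0.65, adjusted p = 0.00221). Stk4, which encodes MST1, did not pass, with a luminal mean of 30.8 ± 10 CPM (SD, n = 5) against a basal mean of 29.3 ± 4.47 CPM (SD, n = 5). The call for Sav1 was lost with upper-quartile factors (-0.24, adjusted p = 0.134), with library totals (-0.16, adjusted p = 0.367), and without basal library 1, 2, 3 or 5 or luminal library 1, 4 or 5, taken out singly (adjusted p from 0.0553 to 0.0851), and Taok1 was not called with GC and length offsets (log2 fold change -0.03). With these offsets Mob1b was called higher in luminal cells (0.49, adjusted p = 0.0025).

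Of 13 upstream and scaffold genes, 8 were higher in basal cells (31.2% of all genes) and 1 in luminal cells (33.6% of all genes). Thus 69.2% were called, where 64.8% of all genes were, and their median log2 fold change was -2.15. With GC and length offsets the counts were 8 and 5, where 65.1% of all genes were called. Ptpn14, a phosphatase that binds YAP, had 677 ± 149 CPM (SD, n = 5) in basal and 21.1 ± 4.2 CPM (SD, n = 5) in luminal cells (log2 fold change -5.00, adjusted p = 3.15e-10). Amotl1, an angiomotin that binds YAP and TAZ, had 692 ± 101 CPM (SD, n = 5) in basal and 101 ± 26.0 CPM (SD, n = 5) in luminal cells (log2 fold change -2.78, adjusted p = 2.39e-08). Neither gene had a luminal library near a basal one. The FERM protein gene Frmd6 (-2.72, adjusted p = 7.75e-09) and the LIM protein genes Ajuba (-2.15, adjusted p = 7.82e-07) and Wtip (-2.77, adjusted p = 5.18e-09), whose products bind LATS, were also higher in basal cells. Rassf1 had a smaller difference (-0.49, adjusted p = 0.00467), not called with library totals (-0.30, adjusted p = 0.0529). The large cadherins Dchs1 (-7.76, adjusted p = 6.75e-09) and Fat4 (-4.22, adjusted p = 5.46e-05) were at most 0.952 and 1.00 CPM in luminal libraries, and their values depend on the setting, as Fat4 was -5.45 with limma voom and -3.52 with GC and length offsets, and Dchs1 was -8.69, -7.04 and, without luminal library 5, -8.58. With these offsets Ptpn14 was -4.42 and Wtip -2.07. Wwc1, which encodes the LATS-activating scaffold KIBRA, went the other way, with a luminal mean of 97.7 ± 15.9 CPM (SD, n = 5) against a basal mean of 30.4 ± 5.22 CPM (SD, n = 5) (log2 fold change 1.68, adjusted p = 3.95e-07). Amot, Amotl2, Limd1 and Wwc2 did not pass. Without luminal library 4, Amot (0.59, adjusted p = 0.0435) and Amotl2 (0.54, adjusted p = 0.00684) were called higher in luminal cells. With GC and length offsets all 4 were, with Amot at 0.88 (adjusted p = 0.0101), Amotl2 at 0.63 (adjusted p = 0.00183), Limd1 at 0.42 (adjusted p = 0.0105) and Wwc2 at 0.47 (adjusted p = 0.0428). Amotl2 was also called with upper-quartile factors (0.52, adjusted p = 0.0223) and with library totals (0.60, adjusted p = 0.0175), and Limd1 with library totals (0.37, adjusted p = 0.0482). The pericyte markers given above were also higher in basal libraries, and their part in these values was not tested.

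Of the other VGLL cofactors, Vgll3 was near zero in luminal cells (0 to 1.84 CPM) and had 34.4 ± 7.81 CPM (SD, n = 5) in basal cells (log2 fold change -5.87, adjusted p = 9.11e-07, -7.14 with limma voom and -6.94 without luminal library 5). Vgll1 and Vgll2 had no count in any library, which allows up to 3 counts, or between 0.158 and 0.232 CPM per library, by counting error alone. Among genes of YAP and TAZ turnover, both subunits that recognise phosphorylated YAP for degradation were higher in luminal cells, Btrc at 0.66 (adjusted p = 0.000687) and Fbxw11 at 0.95 (adjusted p = 1.62e-05). The kinase gene Csnk1d was higher in basal cells (-0.90, adjusted p = 0.000116), and its relative Csnk1e did not pass, with a luminal mean of 141 ± 9.84 CPM (SD, n = 5) against a basal mean of 129 ± 14.1 CPM (SD, n = 5), but was called higher in luminal cells with library totals (0.32, adjusted p = 0.0472).

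For both coactivators, the genes with the most similar pattern were sought among 10080 genes of at least 10 CPM, by the root mean square difference of log2(CPM + 1) over the 10 libraries after centring each gene. Nearest to Yap1 were Kdm5b (0.0736), Gatad2b (0.0791) and Supt6 (0.0814). Nearest to Wwtr1 were Ubtd2 (0.103), Tmem65 (0.120) and Nup98 (0.143). The likeness covers both the difference between cell types and that between libraries, and points share their library's scaling.

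The promoters of the core genes were searched for GGAATG, the core motif that TEAD proteins bind, on both strands (CATTCC on the other). The windows were RefSeq promoters of GRCm38.p6, 300 bases each, from 250 bases before to 50 bases after a start site. The table had 13 promoters for 8 of the 10 genes, and none of Tead1 and Tead4 was used here. Of the 13, 7 held the motif, in Yap1, Wwtr1, Tead3, Lats2 and Vgll4, where 14.7% of 32851 promoters of that length did. These 7 are not independent, since both Wwtr1 promoters overlap and share a single match, and those of Tead3 overlap too. The AP-1 motif TGANTCA was in 0 of the 13 promoters and in 7.81% of all, and 13 promoters are too few to tell these shares apart. The windows below show each match in capitals, read 5′ to 3′ on the strand of the gene, which is the minus strand in each case. Yap1 lies at chr9:8004722-8004747, Wwtr1 at chr3:57576031-57576056, Tead3 at chr17:28350972-28350997, chr17:28350708-28350733, chr17:28350699-28350724 and chr17:28350583-28350608 in the order shown, Lats2 at chr14:57746104-57746129 and Vgll4 at chr6:114969270-114969295.
Yap1: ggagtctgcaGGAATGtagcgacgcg
Wwtr1: taaactcaaaGGAATGcagataggcg
Tead3: cgacgagcgaGGAATGgggtgcgcgg
Tead3: cggccgggctCATTCCgtacattccg
Tead3: tcattccgtaCATTCCggccatcccc
Tead3: gtaagcccggGGAATGcaactcggag
Lats2: tgacgcccgtGGAATGccaacaatgt
Vgll4: agtggggtggGGAATGctgagaaatg

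A match describes these letters only and shows no binding. Matches occurred both in genes that were higher in basal cells (Yap1, Wwtr1, Tead3 and Vgll4) and in Lats2, which did not pass the test, and the promoters of Lats1 and Nf2, called higher in basal cells, and of Tead2, called higher in luminal cells, held none in this window.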

How the data were processed

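The authors deposited raw counts per gene, as whole numbers with 1 column per library and no normalization, for 5 luminal and 5 basal libraries. The submitters' processing notes name cutadapt 4.2, Bowtie2 2.3.5.1 and the builds mm10 and hg19, without roles. The study's methods describe alignment to mm10 for its RNA-seq with fewer replicates per condition, so that these steps hold here was assumed. Which tool and annotation gave the counts, and how strand and shared reads were handled, is not given in the sources used here. Bowtie2 does not align across splice junctions, which can lower counts of genes with short exons. Of 24594 Entrez genes, 24570 matched a symbol in the RefSeq table (GRCm38.p6). Transcript and exon lengths are from the reference annotation.

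Genes were filtered with filterByExpr (minimum count 10, minimum total count 15), which left 14609. Counts were scaled with TMM factors and tested with edgeR 4.0.16 (R 4.3.3, glmQLFit and glmQLFTest, cell type as the only term), with Benjamini-Hochberg adjustment over all genes tested and a threshold of 0.05. The edgeR test was checked on simulated counts with known changes. It recovered 60% of 2-fold and 94.8% of 4-fold changes, with 8 false calls among 14436 genes. A gene that did not pass can therefore still differ. The SE was taken from the F statistic, as |log2 fold change| over its square root. The 5 ratios within libraries, as log2 of (count + 0.5) per length, were compared by exact two-sided permutation tests (scipy 1.17.1). No replicates agreed within sampling noise (lowest chi-square per degree of freedom 14.4 in basal and 31.3 in luminal libraries), so each was counted once.

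The genes, the wider list and the markers were chosen with earlier results of these data known, so no p over a list was computed. Named genes are the 10 core genes, the wider list, the cell type markers and the 3 genes nearest in pattern to Yap1 and to Wwtr1. Alternatives were other scalings, other filters, DESeq2 1.42.0, limma voom 3.58.1, offsets for GC content and transcript length (known for 93.8% of genes tested), a replicate block, other pseudocounts and lengths, and leaving out each library. Other lengths for the order of levels, the ratios and the sums were added after seeing the data.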

Additional observations from a re-analysis of the deposited data

Results flagged for a closer look

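Each value here is a sample that lies far from the other 4 of its group by Dixon's test at its 95% level. Of 114 groups tested, 7 were marked, where chance alone gives about 1 in 20, or 5.70. Lats2 in basal library 4 was at 169 CPM, against 133 to 143 CPM in the other basal libraries. Stk3 in luminal library 5 was at 30.3 CPM, against 23.0 to 25.1 CPM. Taok1 was lowest in both libraries numbered 4, at 83.3 CPM in luminal cells, against 114 to 121 CPM, and at 122 CPM in basal cells, against 177 to 196 CPM. Taok2 in basal library 2 was at 77.4 CPM, against 61.2 to 65.4 CPM. Csnk1e in basal library 3 was at 105 CPM, against 131 to 139 CPM. The share of Tead2 in the TEAD pool of luminal library 1 was 75.7%, against 68.2% to 70.3%.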

How the results depend on the processing

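Yap1, Wwtr1, Tead1, Tead2, Tead3, Tead4 and Lats1 kept their direction and their call in all 20 alternatives, and Lats2 was called in none. Upper-quartile factors moved the median log2 fold change of all genes by 0.12 and library totals by 0.19. Lats2 turned to 0.053 with upper-quartile factors and 0.11 with library totals, both less than the shift itself, and it was 0.23 with GC and length offsets and from -0.18 to 0.032 without single libraries. Nf2 lost its call under upper-quartile scaling (-0.36), under library totals (-0.29) and after correction for GC and length (-0.28), and ran from -0.59 to -0.36 without single libraries. Vgll4 lost its call with library totals (-0.24). With GC and length offsets 11 of the 29 tested genes of the wider list were higher in luminal cells (34.6% of all genes). Another 13 were higher in basal cells, as were 4180 of all 13701 genes tested. With no offsets the counts were 6 and 14.

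Same-numbered luminal and basal libraries share a leading number in the library description, which the labels do not explain. Deviations from the group means correlated between -0.13 and 0.25 in same-numbered libraries, and 2 of 5 pairs were over 0.1. Such correlations cannot settle whether the libraries are paired. The main test left the pairing out, and a replicate block was run as an alternative. The replicate block changed no call of the 10 core genes. The block with GC and length offsets turned Lats2 to 0.19 and left Nf2 at -0.29 without a call (adjusted p = 0.0559). Under it, 11 genes of the wider list were higher in luminal cells (33.5% of all genes). Another 13 were higher in basal cells, as were 4144 of all 13701 genes tested. In the ratios, an exact sign-flip permutation over the same-numbered pairs cannot go under 0.0625, and the differences of 0.98 (Lats2 to Lats1), 7.10 (Tead2 to Tead1), 2.84 (Tead3 to Tead1) and 5.88 (Tead4 to Tead1) had an adjusted p = 0.0781. Wwtr1 to Yap1 ran from -0.33 to -0.22 without single libraries, and passed without basal library 3 (-0.33).

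By coding length, the TEAD shares were 22.3% (Tead1) and 60.8% (Tead2) in luminal cells and 90.4% (Tead1), 1.89% (Tead2), 7.36% (Tead3) and 0.313% (Tead4) in basal cells. By the union of exons, Tead3 had 11.4% in luminal and 14.0% in basal cells. In the wider list, genes that had not passed turned sign or passed. With GC and length offsets Mob1b (0.49), Amot (0.88), Amotl2 (0.63), Limd1 (0.42) and Wwc2 (0.47) were called higher in luminal cells, and with the block added they were called too (0.50, 0.82, 0.62, 0.42 and 0.45). Sav1 lost its call with upper-quartile factors and library totals, Rassf1 with library totals and Taok1 with GC and length offsets. Without single libraries, Stk4 ran from -0.087 (luminal library 1 left out) to 0.22, Mob1b from -0.016 (luminal library 4) to 0.053 and Wwc2 from -0.17 to 0.086 (luminal library 4). Mob1b was -0.0054 with DESeq2 size factors, -0.0056 with DESeq2 and -0.033 without the filter. Taok2 was 0.037 with library totals, 0.13 with GC and length offsets and 0.12 with these and the block. Wwc2 was 0.056 under upper-quartile scaling, 0.13 under library totals and 0.046 when basal library 3 was left out. Dchs1, Fat4 and Vgll3 were not tested with at least 10 counts in every library. Where not stated, the cause was not tested. Depth limits Tead4 in basal cells and the genes at or near 0.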
